A study of Mus musculus with 8 samples.

Results

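Cytosolic ribosomal protein genes encode the protein part of the ribosomes that translate nuclear mRNAs. They were taken here as the protein-coding mouse genes whose symbol is Rpl or Rps followed by a digit, together with Rpsa, Rplp0, Rplp1 and Rplp2. Pseudogenes, Gm-named copies and the Rps6k kinases were left out. This rule found 86 of the 31053 genes in the count table, of which 52 belong to the large subunit and 33 to the small subunit. The remaining member, Rps19bp1, is named after a ribosomal protein that it binds and is not itself part of the ribosome. The members lie on 19 chromosomes.

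Their mRNA levels were compared in brown adipose tissue (BAT), the thermogenic fat of rodents, between 4 wild-type (WT) and 4 db/db mice, all 8 weeks old. db/db mice (B6.BKS(D)-Leprdb/J) lack a working long form of the leptin receptor in every tissue, overeat and become obese and diabetic. All samples carry the strain label C57BL6/J, and tissue was collected from fasted animals. The sources differ on whether WT and db/db mice came from the same supplier. If they did not, the source of the animals and the genotype cannot be told apart. The labels also give stromal vascular fraction as the cell type. Adipocyte mRNAs were nonetheless abundant in every library: Ucp1, the uncoupling protein of brown fat, averaged 2248 ± 387 CPM (counts scaled to library size) in WT and 1429 ± 457 in db/db, and Adipoq, the adipocyte hormone adiponectin, averaged 1534 ± 240 and 1909 ± 185 (SD, n = 4 each).

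Each ribosome holds a single copy of nearly every ribosomal protein, so cells need these mRNAs in a common proportion. Most of the mRNAs begin with a run of C and T bases at the 5′ end, the terminal oligopyrimidine tract, through which the kinase mTOR and the RNA-binding protein Larp1 set how strongly they are translated. Their level in RNA-seq therefore says how much template was present and not how much ribosome was made. In brown adipocytes they stand beside a second, separate machinery, the mitochondrial ribosome, which translates the few proteins that mitochondrial DNA encodes.

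The libraries held 2374079 to 2615009 counts in WT and 2382722 to 3240074 in db/db, and 3 counts corresponded to 0.902 to 1.33 CPM. CPM values are counts scaled to the library's total over the genes tested and its TMM factor, a normalization against the bulk of genes. In the same fit 2568 of 9264 genes differed between genotypes (27.7%), 1466 higher in db/db (15.8%) and 1102 lower (11.9%), by the edgeR quasi-likelihood test at a Benjamini-Hochberg adjusted p under 0.05. The mutated gene Lepr had 0 counts in all 8 libraries and so gave no check of the labels. Genes of other cell types moved with genotype: 18 of 19 skeletal muscle genes, 13 of 15 macrophage genes and 7 of 7 fibroblast genes were higher in db/db, and 5 of the 6 brown adipocyte genes tested were lower. In bulk tissue, fewer cells of a type and less RNA per cell cannot be told apart.

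Sequences around the listed start are shown for the members whose mRNA differed, other than Rpl17, for the stalk gene Rplp2 and for the pair Rps27 and Rps27l, because the results below turn on them. Each line gives 30 bases of RefSeq sequence (build GRCm38.p6) on the gene's own strand, from 15 bases before the listed start to 15 from it on, with the longest unbroken run of C and T in capitals where it reaches 8 bases.
Rps6 (chr4:86857353-86857382, minus strand): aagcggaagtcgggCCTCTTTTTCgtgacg
Rpl35 (chr2:39005117-39005146, minus strand): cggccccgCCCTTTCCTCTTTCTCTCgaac
Rpl34 (chr3:130730384-130730413, minus strand): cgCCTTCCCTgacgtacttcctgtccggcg
Rps23 (chr13:90923107-90923136, plus strand): gccttcggctgggcggggcttcccgcaatg
Rplp2 (chr7:141447636-141447665, plus strand): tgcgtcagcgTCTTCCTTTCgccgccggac
Rps27 (chr3:90213634-90213663, minus strand): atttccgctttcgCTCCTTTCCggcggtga
Rps27l (chr9:66946071-66946100, plus strand): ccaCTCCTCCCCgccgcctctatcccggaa
Rpl3l (chr17:24727811-24727840, plus strand): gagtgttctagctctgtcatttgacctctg
Rps19bp1 (chr15:80264292-80264321, minus strand): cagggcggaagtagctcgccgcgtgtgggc

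Rps6 and Rpl35 carried runs of 10 and 18 pyrimidines across the start, Rplp2 and Rps27 runs of 10 and 9. In Rpl34 and Rps27l the run ended before the listed start. Rpl3l and Rps19bp1 had no run of 8, and neither did Rps23 at the start listed. Of the 86 members, 66 had an entry in the RefSeq promoter table, and 27 of these (40.9%) had a run of at least 8 pyrimidines in such a window at a listed start. The run covered the start in 16 of the 27, ended before it in 6 and began after it in 5, compared with 1181, 1594 and 985 of the genes with a run in the whole table. A run was present in 3760 of all 27025 genes in the table (13.9%), in 1110 of the 7359 tested genes with an entry (15.1%) and in 9 of 69 mitochondrial ribosomal protein genes (13.0%). A match is a description of these letters and of RefSeq's start, which can lie some bases from the start used in BAT. Among members tested, the median log2 fold change was 0.15 over the 27 with a run, of which 3 were higher in db/db, and 0.09 over the 36 without, of which 2 were higher and 1 lower (15.8% of all genes tested were higher and 11.9% lower).

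As a group, the ribosomal protein mRNAs differed little between WT and db/db BAT. Of the 86 members, 83 had enough counts to be tested, and 76 of these did not pass the test. The 6 members higher in db/db (7.23% of those tested, against 15.8% of all genes) were Rpl3l, Rps6, Rpl35, Rps23, Rpl34 and Rpl17. The single member lower was Rps19bp1 (1.20%, against 11.9%). At an unadjusted p under 0.05 there were 20 members, compared with 3602 of all genes tested. The log2 fold changes of the members, db/db over WT, had a median of 0.13, and 59 were positive and 24 negative, while the median over all genes was 0.01. The members' median was 0.05 without WT replicate 1 and 0.06 with a score of muscle genes in the fit, and 0.09, compared with 0.08 over all genes, when every gene with a count was kept. The members' changes were also smaller in size than those of all genes, which lay at a lower level: the median of mean CPM was 271 over the members and 19.3 over all genes tested, and the part of level in this was not tested. The median size of the members' changes without sign was 0.18 on the log2 scale, compared with 0.38 over all genes, and 69 of 83 members (83.1%) differed by less than 1.25-fold either way, compared with 43.8% of all genes. The 95% interval of the fold change lay wholly between -1 and 1 on the log2 scale for 80 members, and for 5225 of 9264 genes.

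**Figure D1:**
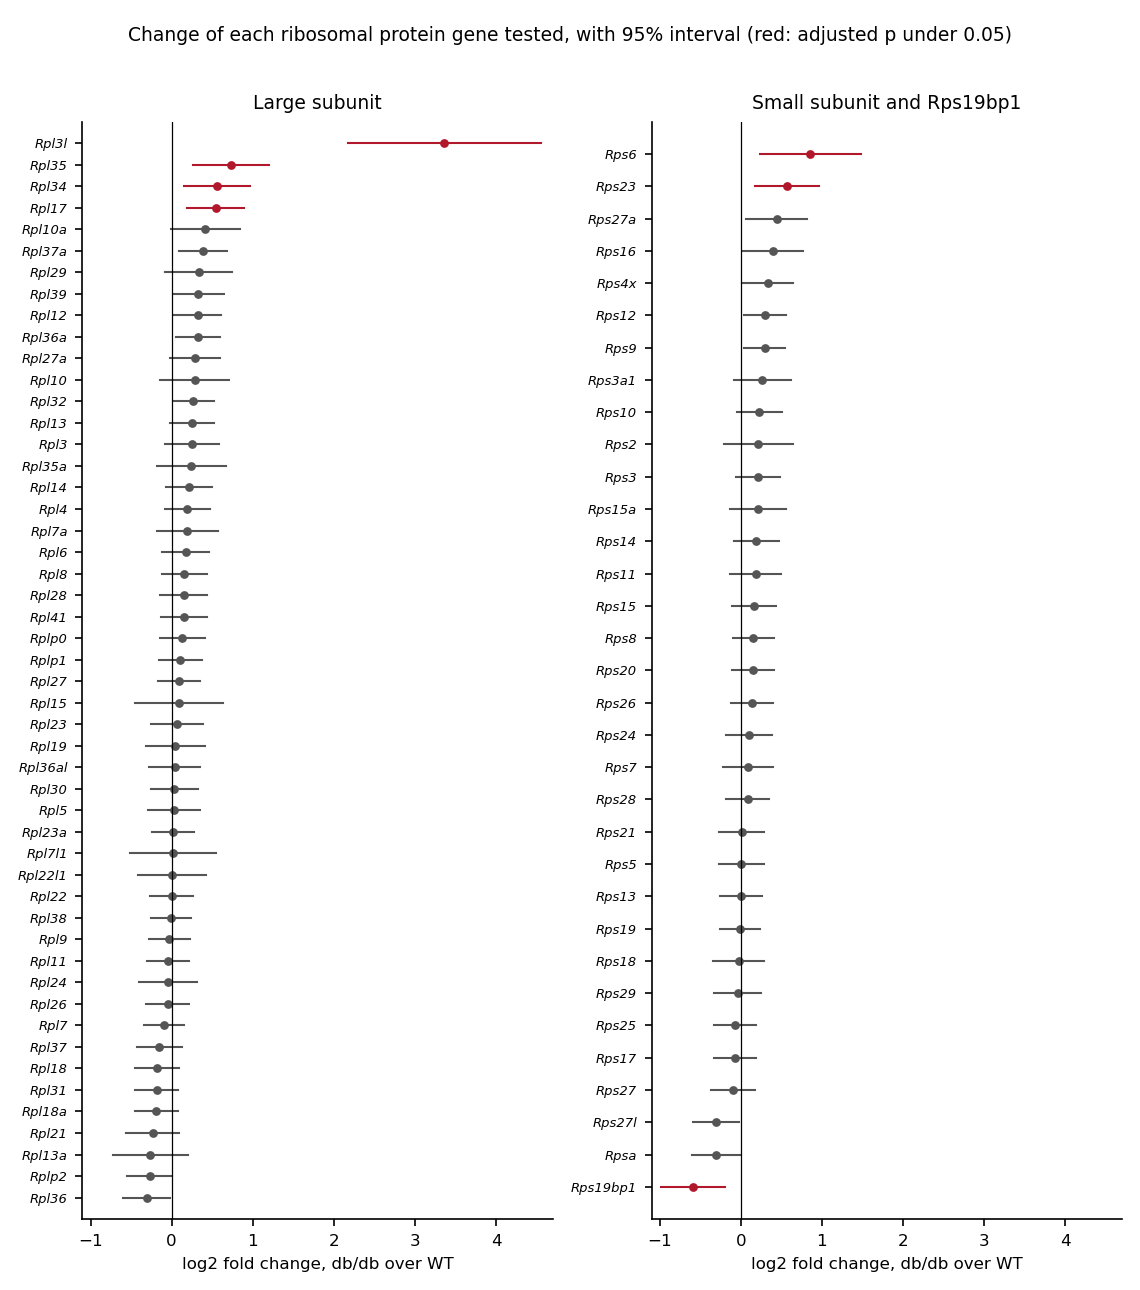
Log2 fold change of the 83 members tested, db/db over WT (x axis), with the edgeR estimate as a point and its 95% interval as a line, for the large subunit (left) and for the small subunit with Rps19bp1 (right). The 7 members with an adjusted p under 0.05 are red, and Rpl3l at 3.36 stands apart from the other members, which lie between -0.59 and 0.86.

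Both subunits followed this pattern. In the large subunit 4 of 50 members tested were higher and 0 lower (15.8% and 11.9% of all genes), with 10 at an unadjusted p under 0.05 (3602 of 9264 over all genes) and a median log2 fold change of 0.10. In the small subunit 2 of 32 were higher and 0 lower, with 9 at an unadjusted p under 0.05 and a median of 0.15. The genotypes did not overlap in 6 members that were higher in all db/db libraries, compared with 15.3% of all genes. These were Rpl3l, Rps16, Rpl37a, Rps12, Rps9 and Rpl32, and of them Rpl3l passed the test. Rps12 held 879 to 955 CPM in WT and 991 to 1230 in db/db, and Rps9, a small subunit protein of the decoding region, held 628 to 731 and 798 to 854 CPM. Their log2 fold changes were 0.30 ± 0.12 and 0.29 ± 0.12 (SE; edgeR adjusted p = 0.0828 and 0.0781), and for Rpl37a, at 0.38 ± 0.14, the adjusted p was 0.0526. DESeq2 called Rps9 (adjusted p = 0.038) and limma-voom called Rpl37a (adjusted p = 0.0381). In 2 members, Rps19bp1 and Rplp2, all db/db libraries lay lower, compared with 12.7% of all genes.

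Levels of the members across the genotypes correlated with r = 0.98 on the log2 scale (85 members with counts, a description across genes of the same libraries). The 5 members with the most counts held 21.7% of the members' summed CPM, and Rplp1 led. Rplp1 and Rplp2 form, with Rplp0, the stalk of the large subunit that recruits the elongation factors. Rplp1 measured 2143, 1980, 1945 and 1955 CPM in the WT libraries and 2263, 1976, 2142 and 2254 in db/db. Rplp2 measured 1495, 1690, 1576 and 1623 CPM in WT and 1257, 1142, 1458 and 1436 in db/db. The values of Rplp0, the stalk base and a common reference gene for PCR, lay at 210 to 250 CPM in WT, compared with 222 to 290 CPM in db/db. The WT and db/db values overlapped for Rplp1 and Rplp0 and did not for Rplp2, whose lowest WT library was above its highest db/db library. Rplp0, Rplp1 and Rplp2 did not pass the test. The log2 fold changes were 0.11 ± 0.13 for Rplp1, -0.27 ± 0.13 for Rplp2 and 0.13 ± 0.13 for Rplp0 (SE; adjusted p = 0.574, 0.135 and 0.505). DESeq2 called Rplp2 at an adjusted p of 0.0385 with a log2 fold change of -0.30. The next most abundant members were Rps29 (1142 ± 144 CPM in WT, 1111 ± 128 in db/db), Rps14 (1033 ± 46.8 and 1182 ± 141) and Rpl37 (1121 ± 40.2 and 1010 ± 144; SD, n = 4 each), with adjusted p of 0.291 to 0.865.

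Although ribosomes hold most of these proteins in equal number, the measured levels were far from equal. The mean level of tested members ran from 13.2 CPM for Rps6 to 2082 for Rplp1. Divided by mRNA length, it ran from 7.14 CPM per kb for Rpl15 to 4173 for Rplp1. The libraries came from a digital mRNA-seq service, and whether their counts grow with mRNA length is not stated. Values per kb, here and below, are therefore uncertain. Rps6 stood at 15.01, Rpl13a at 18.2 and Rps2 at 27.1 CPM per kb. Many members have processed pseudogenes, and a read of 75 bases that fits a pseudogene as well may be counted for either gene, for both or for neither. For 81 of 86 members at least 1 stretch of 75 bases was also found in the transcript of another annotated gene. Summed over the members, this made 762 pairs of a member and another gene. In 688 of these pairs the other gene was a pseudogene. In 32 members at least 50% of all such stretches were shared. The 31 of these that were tested had a median level of 284 CPM per kb, and the other 52 a median of 354. Of the 31, 3 were higher in db/db and the median log2 fold change was 0.17. Of the 52, 3 were higher and 1 lower, with a median of 0.10 (15.8% of all genes were higher and 11.9% lower).

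Among large subunit members, Rpl35, Rpl34 and Rpl17 were 1.45- to 1.66-fold higher in db/db BAT. Rpl35 (ENSMUSG00000062997), which sits at the mouth of the exit tunnel for the growing chain, measured 38.4, 59.5, 85.3 and 48.0 CPM in WT and 86.9, 133, 70.9 and 92.6 in db/db. The replicates overlapped, since WT replicate 3 was above db/db replicate 3, and the log2 fold change was 0.73 ± 0.22 (SE, adjusted p = 0.0202). Exons of Rpl35 overlap Arpc5l and Wdr38 on the other strand, and strand use in counting is not stated, so its value is uncertain. Rpl34 (ENSMUSG00000062006) measured 39.7, 64.6, 91.3 and 53.9 CPM in WT and 92.4, 98.3, 88.7 and 88.2 in db/db, a log2 fold change of 0.56 ± 0.19 (adjusted p = 0.0387). Its db/db libraries were tightly grouped and WT replicate 3 lay among them. Rpl17 (ENSMUSG00000062328), another protein of the tunnel exit, measured 103, 161, 183 and 132 CPM in WT and 179, 250, 214 and 201 in db/db, a log2 fold change of 0.54 ± 0.17 (adjusted p = 0.022).

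In the small subunit, Rps6 and Rps23 were higher in db/db. Rps6 (ENSMUSG00000028495) encodes the protein that S6 kinase phosphorylates downstream of mTOR and is widely used to read that pathway. It measured 4.86, 14.3, 9.77 and 8.49 CPM in WT and 12.9, 19.1, 15.5 and 20.5 in db/db, from 12 to 60 counts a library. The groups overlapped between WT replicate 2 and db/db replicate 1, and the log2 fold change was 0.86 ± 0.30 (SE, adjusted p = 0.0383). Of its 75-base stretches 84.1% were shared with other genes, compared with 77.9% for Rpl17, 50.3% for Rps23, 35.6% for Rpl35 and 30.5% for Rpl34. Rps23 (ENSMUSG00000049517), a protein of the decoding center, measured 83.8, 152, 185 and 129 CPM in WT and 217, 213, 213 and 174 in db/db, a log2 fold change of 0.57 ± 0.19 (adjusted p = 0.0283). WT replicate 3 exceeded db/db replicate 4.

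These 5 rises shared a low WT library. WT replicate 1 was the lowest of all 8 libraries for each of Rps6, Rpl35, Rps23, Rpl34 and Rpl17. Across the members tested it was the lowest library for 45 of 83 (54.2%), compared with 1346 of all 9264 genes (14.5%). In a fit without WT replicate 1, Rpl3l was the single member higher in db/db (14.5% of all genes were), and the same was found without WT replicate 4 (13.9% of all genes) and without db/db replicate 2 (14.6%). The log2 fold changes of the 5 other members that had been called were then 0.37 to 0.62 without WT replicate 1, 0.48 to 0.80 without WT replicate 4 and 0.45 to 0.79 without db/db replicate 2, compared with 0.54 to 0.86 over all libraries. Without db/db replicate 3, Rpl3l, Rpl35 and Rpl17 were higher (14.6% of all genes), and without db/db replicate 4 these and Rps23 (15.1%). Rpl34 kept its call in 1 of the 8 fits that left out a library, the fit without WT replicate 3. Without WT replicate 3 the count was 9 (14.9% of all genes), with Rps6 no longer among them. With DESeq2, 5 members were higher and 2 lower, compared with 12.3% and 8.83% of all genes, and Rps6 and Rpl34 did not pass (adjusted p = 0.0663 and 0.0607). Rpl34 also did not pass when libraries were scaled by their totals alone (edgeR adjusted p = 0.0552). Among genes with at least 10 counts in every library, which leaves out Rpl3l, 11 of 82 members were higher, compared with 15.3% of all genes.

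**Figure D2:**
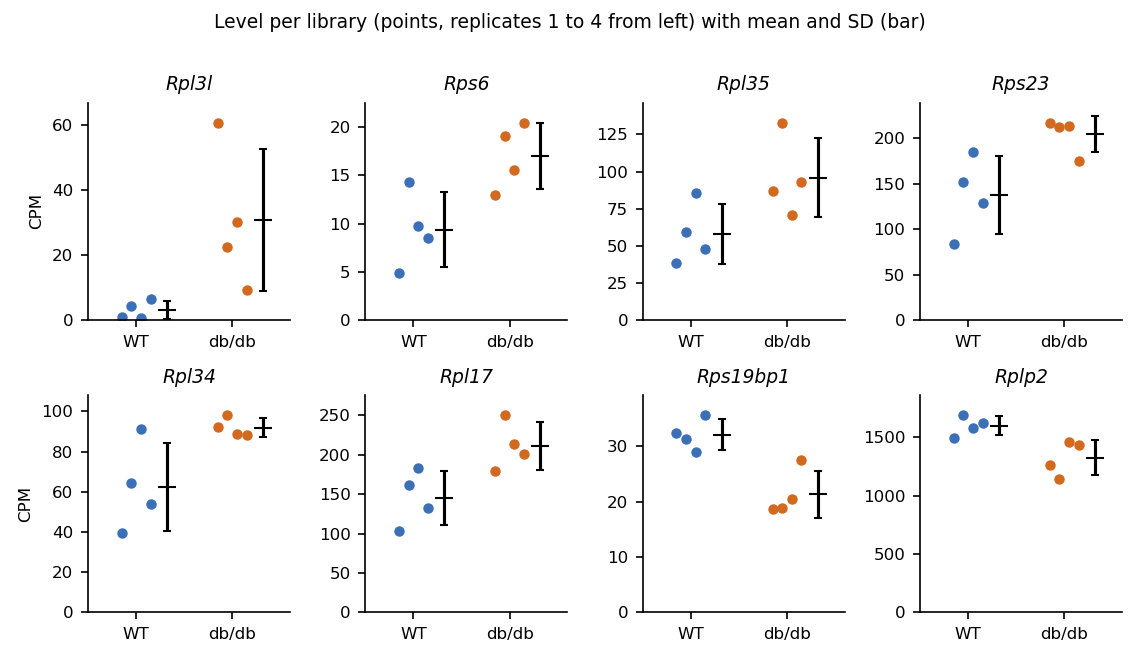
CPM in each library (y axes, from 0) of the 7 members that passed the test and of Rplp2, by genotype (WT blue, db/db orange), with the mean and SD of 4 libraries as a black bar. WT replicate 1 is the lowest point for Rps6, Rpl35, Rps23, Rpl34 and Rpl17, and the genotypes do not overlap for Rpl3l, Rps19bp1 and Rplp2.

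Rpl3l (ENSMUSG00000002500, chr17:24727820-24736143) showed by far the largest change. It encodes the form of Rpl3 that is made in skeletal muscle and heart, where it takes the place of Rpl3 near the peptidyl transferase center. Its counts were 2, 10, 2 and 15 in WT and 202, 71, 68 and 25 in db/db, or 3.04 ± 2.75 and 30.7 ± 21.8 CPM (SD, n = 4 each). All db/db libraries were above all WT libraries, although db/db replicate 4 at 9.30 CPM stood close to WT replicate 4 at 6.37. The log2 fold change was 3.36 ± 0.56 (SE, 95% interval 2.18 to 4.55, adjusted p = 0.000229). None of its 75-base stretches was shared with another gene. Its general counterpart Rpl3 measured 102, 176, 167 and 134 CPM in WT and 171, 164, 189 and 161 in db/db, a log2 fold change of 0.25 ± 0.16 (adjusted p = 0.273). Rpl3l thus made up 0.448% to 4.55% of the counts of the pair in WT and 5.45% to 26.3% in db/db.

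The skeletal muscle genes moved with Rpl3l. The geometric mean of the 19 muscle genes was 20.7, 44.6, 32.8 and 78.1 CPM in WT and 450, 122, 213 and 81.9 in db/db, so that db/db replicate 1 was highest and db/db replicate 4 lowest of its genotype for both measures. Eef1a2, the muscle and neuron form of the elongation factor that delivers aminoacyl-tRNA, followed the same order in db/db. It measured 0.809, 2.53, 3.38 and 4.24 CPM in WT and 59.3, 19.7, 30.1 and 9.67 in db/db (log2 fold change 3.43 ± 0.51, adjusted p = 8.3e-05). The general form Eef1a1 averaged 559 ± 96.7 and 659 ± 49.1 CPM (adjusted p = 0.23). With the muscle score of each library added to the fit, the log2 fold change of Rpl3l was 0.99 (adjusted p = 0.266) and that of Eef1a2 was 1.18 (adjusted p = 0.141). In this fit, 0 members passed in either direction, 6 had an unadjusted p under 0.05, and 663 of all genes were called (7.16%). The log2 fold changes in it were 1.06 for Rps6, 0.95 for Rpl35, 0.62 for Rpl17, 0.50 for Rpl34, 0.28 for Rps23 and -0.43 for Rps19bp1, so that those of Rps6, Rpl35 and Rpl17 were no smaller than without the score. The score itself differs by genotype. Run without the score, DESeq2 called 7 members (21.1% of all genes) and limma-voom 8 (27.4%).

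**Figure D3:**
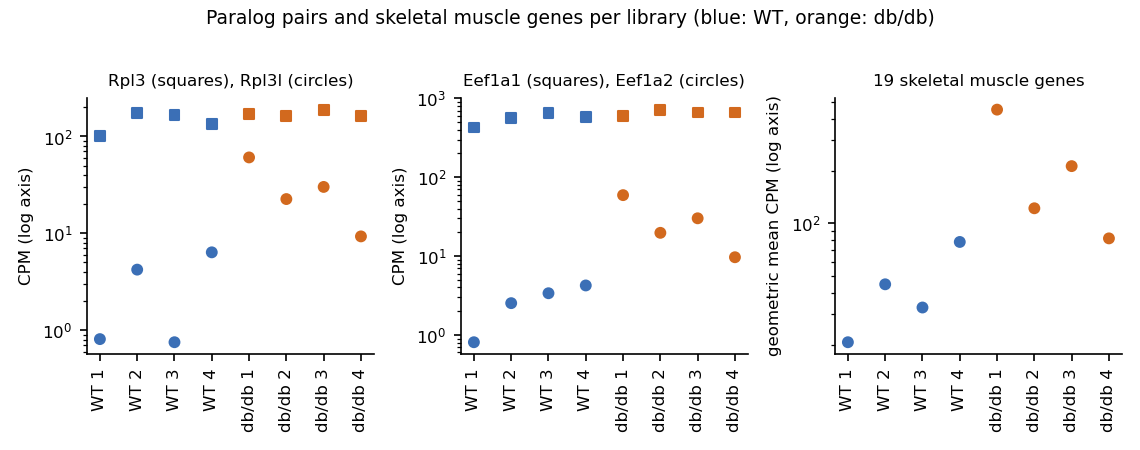
CPM per library on a log axis for Rpl3 and Rpl3l (left), for Eef1a1 and Eef1a2 (middle), and the geometric mean CPM of 19 skeletal muscle genes (right), with WT in blue and db/db in orange. Rpl3 spans 102 to 189 CPM and Eef1a1 426 to 719 CPM, and the muscle forms and the muscle genes are both highest in db/db replicate 1.

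The other paralogs, genes that encode a near copy of a ribosomal protein, did not pass the test. Rpl22l1 averaged 47.8 ± 11.0 CPM in WT and 47.8 ± 11.4 in db/db, and Rpl22 averaged 420 ± 48.3 and 420 ± 22.7 (SD, n = 4 each), with 95% intervals of the log2 fold change of -0.42 to 0.42 and -0.27 to 0.27. Rpl7l1, with a log2 fold change of 0.01 ± 0.25, and Rpl36al, with 0.04 ± 0.15, were as close to 0. Their namesakes Rpl7 and Rpl36a gave -0.09 ± 0.12 and 0.32 ± 0.13 (adjusted p = 0.602 and 0.0722). Rps27l, a p53 target in mouse and human cells, measured 123, 149, 157 and 146 CPM in WT and 102, 126, 109 and 128 in db/db. Its log2 fold change was -0.30 ± 0.13 (adjusted p = 0.104), and that of Rps27 was -0.10 ± 0.13 (adjusted p = 0.621). Rpl10l, a testis form of Rpl10, had 0 counts in all libraries, and Rpl39l, a testis form of Rpl39, had 2 to 17 counts a library and was not tested across genes (exact two-sided permutation p = 0.171). Rps27rt, also too low for the test, had 2 to 14 counts (exact two-sided permutation p = 0.543). Log2 fold changes of Rpl10, Rpl39 and Rps4x were 0.28, 0.33 and 0.33 (adjusted p = 0.323, 0.113 and 0.107).

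Rpl5, Rpl11 and Rpl23 bind the p53 ligase Mdm2 when they are not built into ribosomes. Rpl5 averaged 98.3 ± 17.5 CPM in WT and 100.1 ± 12.1 in db/db, Rpl11 averaged 841 ± 76.5 and 814 ± 30.7, and Rpl23 averaged 586 ± 99.9 and 615 ± 87.8. The differences were smaller than the SD between replicates, with adjusted p of 0.784 to 0.918.

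Of the members, Rps19bp1 (ENSMUSG00000051518) alone was lower by the test. It encodes a nucleolar protein that binds Rps19 and activates the deacetylase Sirt1. It measured 32.4, 31.2, 28.9 and 35.7 CPM in WT and 18.7, 18.8, 20.4 and 27.5 in db/db, without overlap, and its log2 fold change was -0.59 ± 0.19 (SE, adjusted p = 0.0261). The call was lost without WT replicate 4 and without db/db replicate 1, 2 or 3 (edgeR adjusted p = 0.0531 to 0.0727). The lowest among true ribosomal proteins were Rpl36, Rpsa and Rps27l. Rpsa, the small subunit protein that also serves as a laminin receptor, averaged 230 ± 26.8 CPM in WT and 186 ± 25.96 in db/db (log2 fold change -0.30 ± 0.14, adjusted p = 0.112), and Rpl36 gave -0.31 ± 0.14 (adjusted p = 0.1), and -0.41 without db/db replicate 4 (adjusted p = 0.0397).

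Rps27a, a small subunit member made as a fusion behind ubiquitin, measured 102, 191, 205 and 163 CPM in WT and 249, 220, 242 and 186 in db/db (log2 fold change 0.44 ± 0.18, adjusted p = 0.0764, chosen after its values were seen), and its exons overlap Clhc1 on the other strand. WT replicates 2 and 3 lay above db/db replicate 4. Among ribosomal proteins that carry other names, Fau, in which a ubiquitin-like protein precedes a small subunit protein, gave 0.23 ± 0.13 and Rack1, the scaffold protein of the small subunit, 0.17 ± 0.12 (adjusted p = 0.222 and 0.319).

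Added together, the members took 3.02%, 3.04%, 3.26% and 3.01% of the counts of the WT libraries and 3.60%, 2.88%, 3.07% and 3.18% of those of db/db, or 3.08% ± 0.118 and 3.18% ± 0.306 (SD, n = 4 each). The difference of 0.099 percentage points was smaller than either SD. It rested on db/db replicate 1, without which it was -0.041, and it was 0.201 without db/db replicate 2 and 0.158 without WT replicate 3. Counts from mitochondrial DNA took 31.9% to 34.0% of WT and 30.7% to 37.6% of db/db libraries. Outside them the members' shares were 4.61% ± 0.175 and 4.93% ± 0.278. The balance of the subunits shifted slightly: the ratio of summed large to summed small subunit CPM was 1.31, 1.29, 1.27 and 1.28 in WT and 1.22, 1.24, 1.23 and 1.24 in db/db, with no overlap. Rplp2 accounted for part of this gap. Without it, in a recalculation chosen after seeing the data, the ratios were 1.17 ± 0.014 and 1.14 ± 0.009, and the lowest WT library at 1.161 was still above the highest db/db library at 1.152. No test was made of these sums.

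**Figure D4:**
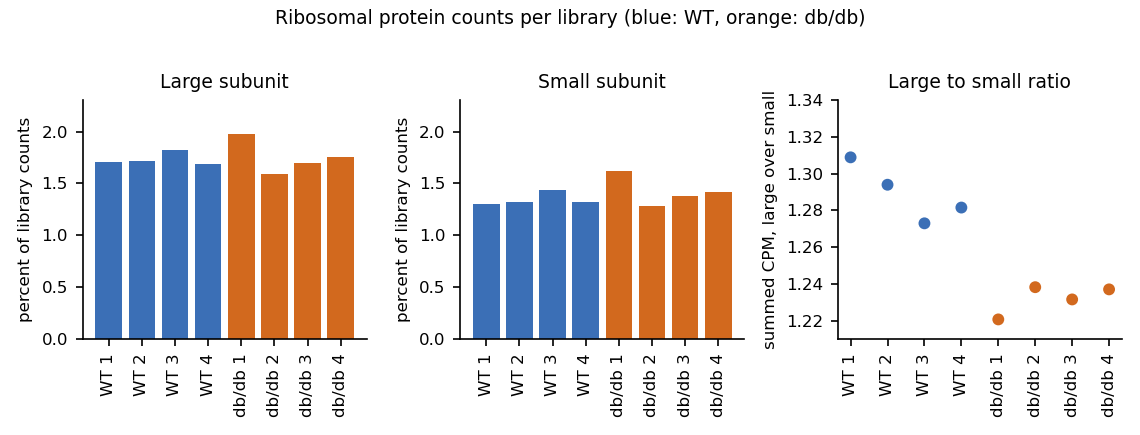
Percent of each library's counts on large (left) and small (middle) subunit genes, as bars from 0, and the ratio of summed large to summed small subunit CPM (right, axis not from 0), with WT in blue and db/db in orange. The shares overlap between genotypes, and the ratio lies above 1.27 in WT and below 1.24 in db/db.

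Within a genotype the members varied less than all genes, and their deviations were weakly correlated. The median SD of log2 CPM between replicates was 0.17 over the members and 0.31 over all genes tested, whose level was lower (medians of 271 and 19.3 CPM). Pairs of members had a mean correlation of 0.23 in their deviations from the genotype means over the 8 libraries. No such value was computed over all genes, so a variation particular to the members is not shown. WT replicate 1 deviated most, with a median of -0.16 on the log2 scale, and WT replicate 3 lay at 0.14, while the other libraries lay between -0.10 and 0.06. In WT replicate 1 the members with at least 50% shared stretches had a median deviation of -0.29 and the others of -0.10. The part of this library in the rises was not tested beyond the fit without it.

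Genes that build and run ribosomes were examined as lists alongside. Of 48 ribosome biogenesis genes tested, 12 were lower in db/db and 0 higher, with 18 at an unadjusted p under 0.05, and DESeq2 called 13 of 50 and limma-voom 12 of 48 (21.1% and 27.4% of all genes). By edgeR 25% of the list was lower, against 11.9% of all genes, and the median log2 fold change was -0.33. Gnl3, the nucleolar GTPase nucleostemin, measured 52.6, 67.5, 82.7 and 69.2 CPM in WT and 29.8, 27.7, 34.6 and 33.9 in db/db, a log2 fold change of -1.12 ± 0.17 (adjusted p = 8.66e-05). Gtpbp4, a GTPase of large subunit assembly, gave -1.04 ± 0.15, Nop14, a factor of small subunit processing, gave -1.11 ± 0.18, and the rRNA methyltransferase Nop2 gave -1.14 ± 0.28 (adjusted p = 5.84e-05, 0.000199 and 0.00482). In these 4 genes every db/db library lay below every WT library. Nop10, a part of the H/ACA particles that modify rRNA, averaged 286 ± 12.4 and 179 ± 23.7 CPM and was also lower (-0.68 ± 0.13, adjusted p = 0.000728). Nucleolin (Ncl) averaged 170 ± 16.0 and 178 ± 1.42 CPM (adjusted p = 0.714). With the muscle score in the fit 4 of the 48 genes were called, compared with 7.16% of all genes, and the median was -0.29. Nop2, at -1.38, did not pass in that fit (adjusted p = 0.0657).

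Of the 75 mitochondrial ribosomal protein genes tested, 16 were lower (21.3%, against 11.9% of all genes), 1 was higher (Mrps6; 1.33%, against 15.8%) and the median log2 fold change was -0.18. The largest falls were those of Mrps18a (-1.02 ± 0.21), Mrpl15 (-0.94 ± 0.16), Mrps26 (-0.80 ± 0.19) and Mrpl35 (-0.79 ± 0.15), with adjusted p of 0.000241 to 0.00469. Mrpl30 averaged 286 ± 24.6 CPM in WT and 172 ± 26.7 in db/db, and Mrpl34 395 ± 64.0 and 284 ± 48.5 (adjusted p = 0.000604 and 0.0292). The call of Mrpl34 was lost without WT replicate 1, 2 or 4 and without db/db replicate 1 or 2. With the muscle score in the fit the median was -0.06 and 0 passed, with 2 at an unadjusted p under 0.05, while DESeq2 and limma-voom without the score called 19 of 76 and 17 of 75 (21.1% and 27.4% of all genes). The difference between the cytosolic and the mitochondrial list was not tested. Brown adipocyte genes were lower in the same libraries, and their part in this was not tested.

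Of 33 initiation factor genes tested, 6 were lower (18.2%, against 11.9% of all genes), 1 was higher (3.03%, against 15.8%) and the median log2 fold change was -0.16. Without WT replicate 4, 4 were called (23.1% of all genes). Eif3a, the scaffold of the factor that loads the small subunit, averaged 297 ± 20.7 CPM in WT and 192 ± 3.94 in db/db, a log2 fold change of -0.63 ± 0.12 (adjusted p = 0.000632). Eif4a2, a helicase, Eif4b, its partner, and Eif2s1, the subunit whose phosphorylation halts initiation, gave -0.77 ± 0.20, -0.55 ± 0.17 and -0.55 ± 0.16 (adjusted p = 0.00761, 0.021 and 0.0176). Eif4b did not pass without WT replicate 4 or without db/db replicate 2. With the muscle score in the fit Eif4b alone of the list passed (7.16% of all genes), and the log2 fold changes of Eif3a, Eif4a2 and Eif2s1 were -0.61, -0.58 and -0.74 (adjusted p = 0.0864, 0.354 and 0.149). The gene that rose was Eif4g2, with 0.47 ± 0.12 (adjusted p = 0.00754). The most abundant genes of the list, Eif2s2 and Eif1, gave -0.19 and -0.12 (adjusted p = 0.274 and 0.537). Of 11 elongation and termination genes Eef1a2 was higher and Abce1, which splits ribosomes after termination, was lower (-0.64 ± 0.19, adjusted p = 0.0171), each 9.09% of the list, against 15.8% and 11.9% of all genes. With the score 0 of the 11 passed by edgeR, with 1 at an unadjusted p under 0.05, and DESeq2 and limma-voom without it called 2 each. Abce1 then stood at -0.60 (adjusted p = 0.347). Eef2, the translocation factor, averaged 1101 ± 90.5 and 1163 ± 174 CPM (adjusted p = 0.724).

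**Figure D5:**
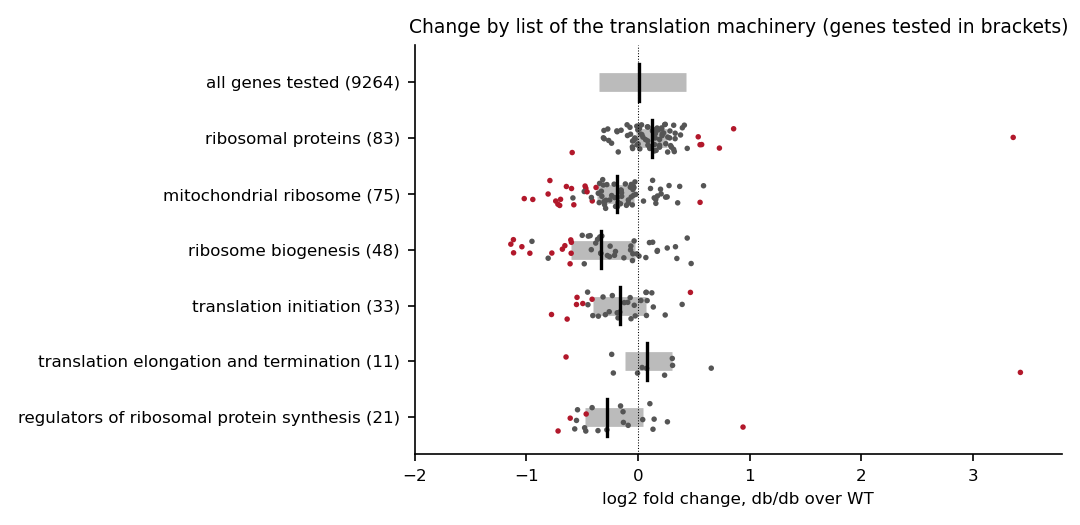
Log2 fold change, db/db over WT (x axis), of each gene tested in the ribosomal protein list and 5 other lists of the translation machinery, 1 point per gene (red where the adjusted p is under 0.05), with the median as a black line and the middle 50% of genes as a gray bar. All genes tested are shown by their median and bar alone. The medians are 0.13 for ribosomal proteins, -0.18 for the mitochondrial ribosome and -0.33 for ribosome biogenesis.

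Of 21 regulators of ribosomal protein synthesis tested, 3 were lower (14.3%, against 11.9% of all genes) and 1 was higher (4.76%, against 15.8%). Mtor, the kinase at the center of this control, measured 45.7, 57.0, 49.2 and 58.2 CPM in WT and 35.5, 37.5, 40.3 and 39.1 in db/db (log2 fold change -0.46 ± 0.15, adjusted p = 0.0296). Deptor, which binds and inhibits mTOR, measured 330, 304, 224 and 274 CPM in WT and 516, 577, 530 and 551 in db/db, a log2 fold change of 0.94 ± 0.14 (adjusted p = 6.49e-05). Both differed without overlap between genotypes, but Mtor did not pass without WT replicate 2 or 4, without db/db replicate 1 or 2, or with at least 10 counts required in every library (log2 fold change -0.46 to -0.41 in these fits). Eif4ebp1, the mTOR substrate that holds back cap-dependent initiation, averaged 249 ± 16.8 and 163 ± 27.4 CPM (-0.61 ± 0.14, adjusted p = 0.00303), and Max, the partner of Myc, 61.6 ± 6.52 and 37.4 ± 3.85 (-0.72 ± 0.15, adjusted p = 0.00182). With the muscle score in the fit Deptor alone of these passed, and the log2 fold changes of Mtor, Eif4ebp1 and Max were -0.56, -0.53 and -0.78 (adjusted p = 0.253, 0.187 and 0.082). Myc itself had 0 to 11 counts a library and was not tested.

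Other mRNAs known to begin with a pyrimidine tract gave 1 higher and 2 lower of 16 (6.25% and 12.5%, against 15.8% and 11.9% of all genes), with a median log2 fold change of 0.07. Nap1l1, a histone chaperone, rose from 128 ± 27.5 to 268 ± 37.7 CPM (1.06 ± 0.16, adjusted p = 8.01e-05), and Npm1, a nucleolar chaperone also counted under ribosome biogenesis, fell from 130 ± 17.9 to 85.4 ± 13.6 (-0.60 ± 0.15, adjusted p = 0.00592; with the muscle score -0.73, adjusted p = 0.0851). Eif4b was the other gene that fell.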

How the data were processed

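Bulk RNA-seq libraries of BAT from 4 WT and 4 db/db mice were grouped by their titles. The authors trimmed single-end reads with bbduk, aligned them to mm10 with STAR, counted them per gene with HTSeq-count and deposited raw counts. The submitters' processing notes instead name Trimmomatic, HISAT2 and DESeq2. How strand, molecular identifiers and reads fitting several places were treated is not given in the sources used here. The deposited log2 table and the sample sheet were not used.

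Symbols came from GENCODE M21, which matched 31011 of 31053 genes. The members, gene lists and rule for named genes were chosen with earlier results of these data known. Genes passing filterByExpr (minimum count 10, minimum total 15) were scaled by TMM, and all were fitted together with genotype in edgeR (version 4.0.16, under R 4.3.3). SE and 95% intervals came from the F statistic. Alternatives were DESeq2 1.42.0, limma-voom 3.58.1, other scalings and filters, a replicate block, a muscle score covariate, summed pseudogenes and leaving out each library. The procedure was tested on simulated counts. CPM used for lists had a prior count of 2 on the log scale. The floor of 3 counts covers counting error only. Named were members called, the 5 most abundant, the stalk and paralog genes, Mdm2 binders, and per list up to 4 called genes and 2 by level. Some genes of these lists are not reported here. Replicates are separate samples by label, so p-values measure the spread between them.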

Additional observations from a re-analysis of the deposited data

Results flagged for a closer look

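A library was set apart from the other 3 of its genotype in 6 of 130 sets of values examined by Dixon's test, and chance at 1 in 20 would give 6.5. Rps23 measured 174 CPM in db/db replicate 4 and 213 to 217 in the others. Eif2s2 measured 566 CPM in db/db replicate 1 and 496 to 501 in the others, and Eif1 measured 307 CPM in WT replicate 1 and 410 to 417 in the others. In WT replicate 3 the share of counts was high for all members (3.26%, others 3.01% to 3.04%), for the large subunit (1.82%, others 1.69% to 1.71%) and for the small subunit (1.43%, others 1.30% to 1.32%). The causes were not tested.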

How the results depend on the processing

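With DESeq2 5 members were higher in db/db and 2 lower (12.3% and 8.83% of all genes), and with at least 10 counts in every library 11 were higher (15.3%). Under limma-voom, RLE, upper quartile or total scaling, TMM without the ribosomal protein and mitochondrial DNA genes, no filter beyond a single count, or summed pseudogenes, 5 to 7 were higher and 1 lower (11.3% to 15.8% and 8.01% to 13% of all genes). With the muscle score 663 genes were called (7.16%), with 0 members higher and 0 lower (6 at an unadjusted edgeR p under 0.05; DESeq2 and limma-voom without the score called 7 and 8). Of the lists, 4 biogenesis, 1 initiation, 0 elongation, 1 regulator and 0 mitochondrial ribosome genes were then called (11, 3, 1, 4 and 2 at an unadjusted p under 0.05). The cause was not tested.

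Leaving out 1 library gave 1 to 9 members higher and 0 to 2 lower (13.6% to 15.1% and 9.2% to 11.1% of all genes) and 4 to 8 initiation genes called. It gave 2236 to 2483 genes in all and a members' median log2 fold change of 0.05 to 0.15. The difference in the members' share ran from -0.041 to 0.201 percentage points.

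Sign changes arose in named genes that did not pass the test and lay near 0. The log2 fold change of Rpl22l1 was -0.033 with DESeq2, -0.0078 with RLE, -0.025 with upper quartile scaling, -0.0088 with totals, -0.010 with TMM without the ribosomal protein and mitochondrial DNA genes, -0.049 with every gene that had a count and -0.65 with the muscle score. That of Rpl5 was -0.0064 with DESeq2, -0.021 with every gene and -0.29 with the score. That of Rpl7l1 was -0.028 with DESeq2, -0.0078 with limma-voom, -0.013 with upper quartile scaling, -0.038 with every gene and -0.41 with the score. Rpl23 stood at -0.25 with the score, Rpl36al at -0.012 with every gene and Rpl22 at 0.0048 with limma-voom. With at least 10 counts in every library Rpl22 stood at 0.051, Rpl11 at 0.0035 and Rps29 at 0.011. Leaving out 1 library gave -0.16 to 0.13 for Rpl22l1, -0.11 to 0.092 for Rpl5, -0.16 to 0.20 for Rpl7l1, -0.078 to 0.038 for Rpl22, -0.060 to 0.11 for Rpl36al, -0.12 to 0.024 for Rps29, -0.068 to 0.16 for Rpl23 and -0.0037 to 0.15 for Eef2. The cause was not tested.

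Equal replicate numbers did not pair the libraries, whose deviations correlated at 0.038, 0.049, -0.078 and -0.014 for numbers 1 to 4. A fit with the replicate number as a block gave 2557 genes, with 6 members higher and 1 lower (15.7% and 11.9% of all genes), and turned Rpl22 to 0.0050 and Rpl7l1 to -0.029.

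The large to small ratio differed by -0.058, by -0.030 without Rplp2 and by -0.063 to -0.051 without 1 library, all chosen after seeing the data. Depth limits members of few counts: 3 counts were 0.902 to 1.33 CPM.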
